A study of Homo sapiens with 12 samples.

Results

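The kinase module of Mediator was described here through its 7 human subunit genes, CDK8, CDK19, CCNC, MED12, MED12L, MED13 and MED13L. They were taken by gene name from the 56269 rows of the deposited count table, and all 7 were found there. The study sequenced RNA of HCC1954, an ERBB2-amplified (HER2-positive) epithelial line of human breast cancer grown in RPMI1640 with serum, in 12 cultures. The labels give 4 treatments of 24 hours with 3 biological repeats each: SNXB at 1 µM, lapatinib at 1 µM, a combination whose doses the labels do not state, and DMSO as the vehicle. Lapatinib inhibits the EGFR and ERBB2 kinases. SNXB is not spelled out in the labels, and elsewhere this short form is used for senexin B, an inhibitor of the CDK8 and CDK19 kinases. The 12 count columns, S13 to S24, carry names that match no sample label, so no culture could be given a treatment. The cultures were therefore described as 12 cultures of 1 cell line in which treatments and repeats are mixed, and no effect of SNXB or lapatinib was measured.

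Mediator is the large complex that passes signals from transcription factors to RNA polymerase II. Its kinase module is a detachable part made of 1 kinase (CDK8 or CDK19), cyclin C, 1 MED12 protein and 1 MED13 protein. MED12 activates the kinase through cyclin C, and MED13 tethers the module to core Mediator, a contact that hinders binding of the polymerase. In vertebrates the kinase, MED12 and MED13 each exist as a pair of paralogues that replace each other in the module, whereas cyclin C is encoded by 1 gene.

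The paralogues of a pair are different enough to be counted apart. Over aligned coding bases of GENCODE 29 transcripts, CDK8 and CDK19 were 75.8% identical, MED12 and MED12L 67.2%, and MED13 and MED13L 65.2%. The longest identical run was 19 bases in the kinase pair, 21 in the MED12 pair and 20 in the MED13 pair. No stretch of 50 bases was shared within any pair. To show this, the 90 aligned coding bases with the most identities are given for each pair, 5′ to 3′ on the transcribed strand, with the bases that differ from the paralogue in capitals.

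The kinase pair differed at 13 of 90 bases in coding positions 484 to 573, which lie in exons 5 and 6 and include the codons of the DMG motif (gacatggg) at the start of the activation loop. On GRCh38 the CDK8 window spans chr13:26382841-26385269 on the plus strand and the CDK19 window spans chr6:110632103-110638679 on the minus strand, each with an intron inside.
CDK8: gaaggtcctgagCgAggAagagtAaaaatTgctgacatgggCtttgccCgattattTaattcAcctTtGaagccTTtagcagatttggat
CDK19: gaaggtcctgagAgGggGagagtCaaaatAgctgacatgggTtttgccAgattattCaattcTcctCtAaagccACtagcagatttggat

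The MED12 pair differed at 13 of 90 bases in coding positions 40 to 129 of exons 1 and 2, which encode part of the N-terminal region through which MED12 acts on the kinase. The MED12 window spans chrX:71118794-71119402 and the MED12L window spans chr3:151086966-151116367, both on the plus strand of GRCh38.
MED12: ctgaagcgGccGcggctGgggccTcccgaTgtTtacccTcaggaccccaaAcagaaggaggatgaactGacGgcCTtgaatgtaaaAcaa
MED12L: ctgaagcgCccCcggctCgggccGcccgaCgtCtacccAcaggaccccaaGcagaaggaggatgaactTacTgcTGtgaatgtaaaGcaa

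The MED13 pair differed at 15 of 90 bases. The MED13 window lies in exon 16 at chr17:61982673-61982762 and the MED13L window in exon 17 at chr12:115991510-115991599, both on the minus strand of GRCh38.
MED13: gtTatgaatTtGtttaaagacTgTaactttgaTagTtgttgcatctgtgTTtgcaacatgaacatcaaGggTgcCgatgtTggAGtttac
MED13L: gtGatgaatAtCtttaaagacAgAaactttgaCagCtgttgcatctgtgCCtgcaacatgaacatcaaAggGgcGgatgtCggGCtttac

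The libraries held 9289353 to 12219397 counted fragments. All 10 genes chosen as markers of a HER2-amplified epithelial line had a median of at least 1 count per 1000000. They ran from KRT19 at a median of 47.1 transcripts per 1000000 (TPM) to KRT8 at 3363 TPM. Of the 2 genes listed as low in this line, the estrogen receptor gene ESR1 had a median of 4.47 TPM, from 45 to 290 counts. The progesterone receptor gene PGR had 0 counts. Of markers of other cells, 0 of 4 blood genes, 1 of 3 fibroblast genes (COL1A1, 4.26 TPM) and 3 of 3 endothelial genes (PECAM1 the highest, at a median of 28.8 TPM) reached a median of 1 CPM (counts per 1000000). Cultures S21 to S24 stood apart: they had 20720 to 21295 rows with a count, against 22890 to 24681 in S13 to S20. MALAT1, a long RNA retained in the nucleus, had 1398 to 2194 counts in S21 to S24 and 7506 to 15553 counts in the other 8. NEAT1, another nuclear RNA, had 260 to 633 counts in S21 to S24 and 1361 to 4378 counts in the other 8. The level of long genes, the median centred log2 CPM of genes with at least 8000 exonic bases, was -0.091 to -0.033 in S21 to S24 and -0.026 to 0.118 in the other 8. This split was seen in the data, matches no label, and no treatment was read from it. Values that rest on these 4 cultures are given below with and without them.

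Per exonic base, 6 of the 7 genes were well measured and 1 was close to the detection limit. Levels are in TPM, the count divided by the deposited exonic length and scaled to a fixed sum over all rows, which allows genes of different length to be compared. The order by median was CCNC, MED13, MED12, CDK8, CDK19, MED13L and MED12L. CCNC was above MED13 in 9 of 12 cultures, MED13 above MED12 in 9, and MED12 above CDK8 in 8, and the ranges of each of these neighbours overlapped, so their order was not separated. CDK8 was above CDK19 in 12 of 12 cultures with no overlap of the ranges. CDK19 was above MED13L in 12 of 12 within a culture, although their ranges over cultures overlapped. The same order by median was found in the 8 cultures without S21 to S24.

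**Figure D1:**
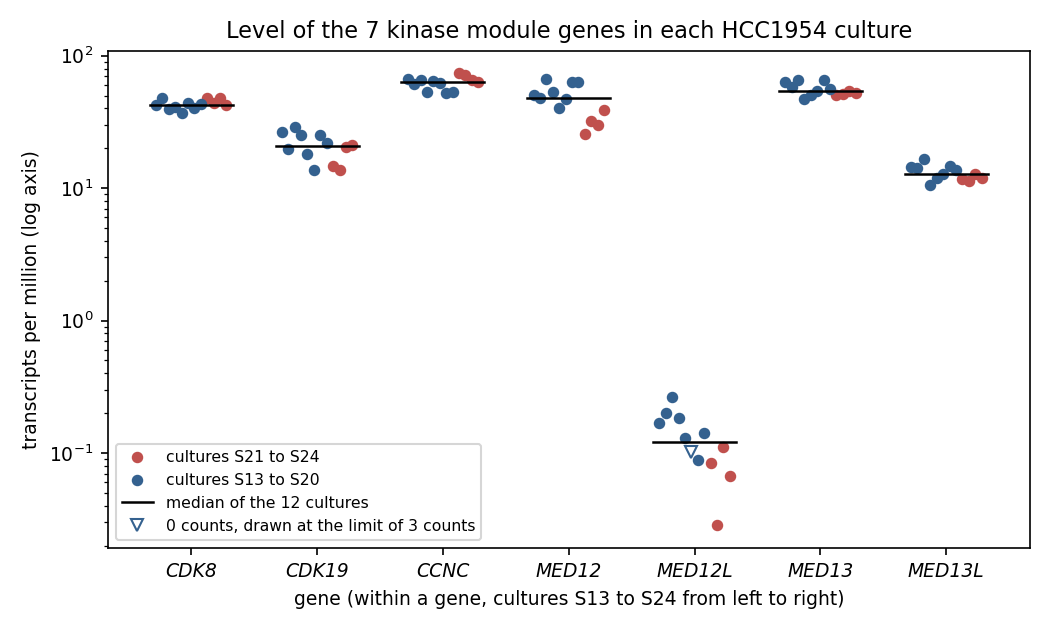
Level in TPM (log axis) of each kinase module gene in each of the 12 HCC1954 cultures, with S21 to S24 in red, S13 to S20 in blue and a line at the median. MED12L lies between 0.0285 and 0.265 where it has a count, with S18 at 0 counts drawn at the limit of 3 counts, and the other 6 genes lie between 10.5 and 73.5.

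CDK8, the founding kinase of the module, lies on chromosome 13 at 26254104 to 26405238, plus strand (GRCh38). It had 36.7 TPM in the lowest culture, a median of 42.6 and 48.2 in the highest, from 315 to 485 counts. S21 was the highest and S17 the lowest. In S21 to S24 it lay between 42.4 and 48.2 TPM and in the other 8 between 36.7 and 47.6, so these ranges overlapped in TPM.

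CDK19, the paralogous kinase, lies on chromosome 6 at 110609978 to 110815958, minus strand. It had 13.7 TPM in the lowest culture, a median of 20.9 and 28.97 in the highest, from 241 to 585 counts. S18 and S22 were lowest and S15 highest, and both sets of cultures reached down to 13.7 TPM.

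Summed per exonic base over the 12 cultures, CDK8 was 2.06 times as high as CDK19 (95% exact interval 1.98 to 2.14, for counting error only), with 4850 counts of CDK8 and 4986 of CDK19. The counts are near equal, and the difference comes from the exonic length of 3538 bases for CDK8 and 7492 bases for CDK19. By culture, the ratio of CDK8 over CDK19 was 1.36 at the lowest (S15, interval 1.19 to 1.55), 2.01 at the median and 3.29 at the highest (S21, interval 2.84 to 3.80). S18, S21 and S22 lay at 3.17 to 3.29 and S13, S15, S16 and S19 at 1.36 to 1.62, with no overlap of their intervals. The spread of this ratio was well beyond counting error, with a chi-square per degree of freedom of 17.97, where a value near 1 is what counting error alone gives. CDK8 supplied 57.6% to 76.7% of the summed level of both kinases. That sum was 54.8 TPM at the lowest, 65.3 at the median and 69.0 at the highest, a range of 1.26-fold. The range was close to this for CDK8 alone (1.31-fold) and wider for CDK19 alone (2.11-fold). These ranges were not tested against each other.

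**Figure D2:**
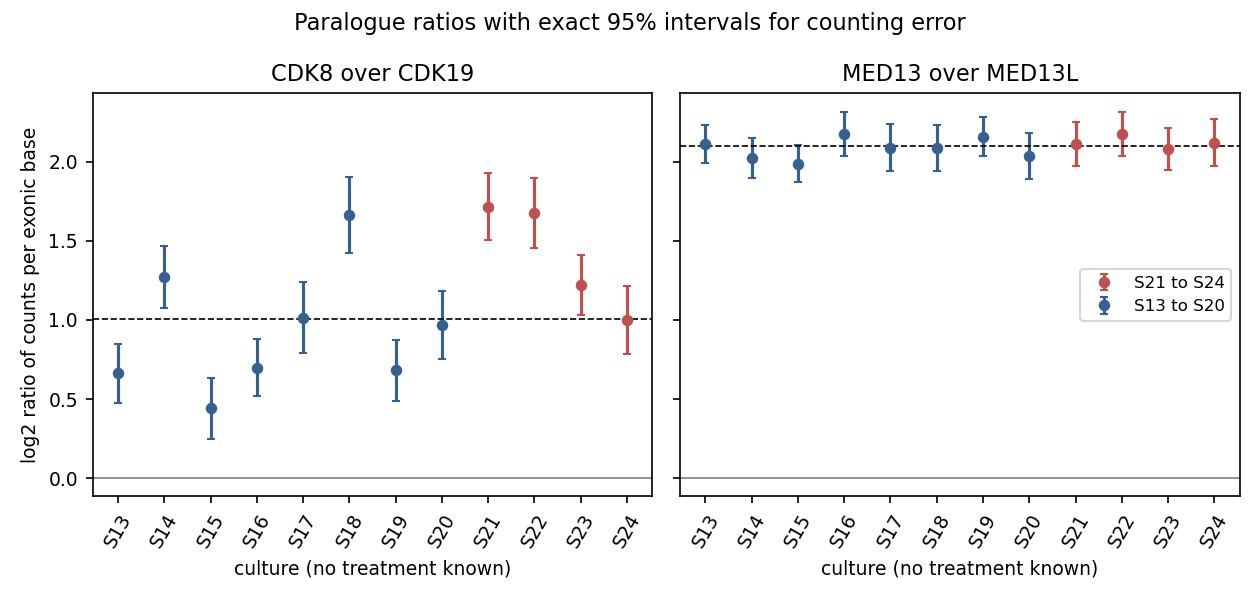
Log2 ratio of counts per exonic base, CDK8 over CDK19 on the left and MED13 over MED13L on the right, in each culture, with exact 95% intervals for counting error and a dashed line at the median. The kinase ratio runs between 0.44 and 1.72, and the MED13 ratio between 1.99 and 2.18.

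CCNC encodes cyclin C, the regulatory partner of both kinases, and lies on chromosome 6 at 99542380 to 99568973, minus strand. It had 52.6 TPM in the lowest culture, a median of 63.7 and 73.5 in the highest, from 682 to 1197 counts. S21 and S22 were the highest and S16, S19 and S20 the lowest. It was the highest of the members by median, and how far above depends on the length used: with the longest annotated transcript as length, its median was 148.6 TPM, against 49.4 TPM for CDK8 and 25.03 TPM for CDK19. An annotated feature on the opposite strand shares 528 (9.16%) of its exonic bases, and that feature had 6 counts in all.

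MED12, the subunit that activates the kinase, lies on chromosome X at 71118556 to 71142454, plus strand. It had 25.8 TPM in the lowest culture, a median of 47.7 and 66.4 in the highest, from 540 to 1329 counts. The 4 lowest cultures were S21 to S24, at 25.8 to 38.7 TPM, and the other 8 lay at 40.6 to 66.4 TPM with no overlap. MED12 thus moved with the split in MALAT1, NEAT1, rows with a count and the level of long genes given above. How many of all genes do so was not counted. As a description of libraries that share this split, r of MED12 with the level of long genes was 0.88 over 12 cultures and 0.70 over the 8. Their part in the MED12 level was not tested beyond the partial correlations given with the processing choices.

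MED12L, the paralogue, lies on chromosome 3 at 151085697 to 151437072, plus strand, and had 50 counts over all 12 libraries. Single cultures had 0 to 9 counts, or 0 to 0.265 TPM with a median of 0.121. S18 had 0 counts. In the other 11 cultures MED12 was 239.6 (S14) to 1128 (S22) times as high per exonic base. The value of S22 rests on 1 count of MED12L, under the limit of 3 counts (exact 95% interval 201.8 to 44639). This range is therefore not read as a difference between cultures. Over the 12 summed, MED12 was 373.0 times as high (exact interval 282.7 to 502.8). In S18 MED12 was at 465.1 times the level of 3 counts of MED12L, and the exact 95% lower limit of the ratio was 377.4. MED12L shares 30.1% of its exonic bases with other rows, 3634 of them with IGSF10 on the opposite strand, which had 2 counts in all. Fragments on shared bases cannot be told apart without strand, so the level of MED12L is uncertain.

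MED13, which links the module to core Mediator, lies on chromosome 17 at 61942605 to 62065282, minus strand. It had 47.4 TPM in the lowest culture, a median of 54.1 and 65.8 in the highest, from 1546 to 2269 counts, the most of any member. S15 and S19 were highest and S16 lowest, and S21 to S24 lay at 50.3 to 53.6 TPM, inside the 47.4 to 65.8 TPM of the other 8.

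MED13L, its paralogue, lies on chromosome 12 at 115953872 to 116277338, minus strand. It had 10.5 TPM in the lowest culture, a median of 12.8 and 16.6 in the highest, from 485 to 773 counts. S15 was again highest and S16 again lowest. It shares 1.23% of its exonic bases with another row, which had 3 counts in all.

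MED13 was 4.27 times as high as MED13L per exonic base over the 12 cultures summed (exact interval 4.16 to 4.39). The ratio was 3.97 at the lowest (S15), 4.29 at the median and 4.52 at the highest (S22), and its spread was no larger than counting error (chi-square per degree of freedom 0.81). MED13 supplied 79.9% to 81.9% of the summed level. Between cultures the MED13 ratio ranged over 1.14-fold and the kinase ratio over 2.42-fold.

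With the deposited exonic length, the summed levels of the 4 positions of the module had these medians: 65.3 TPM for the kinases, 63.7 for cyclin C, 47.8 for MED12 with MED12L and 66.9 for MED13 with MED13L. They varied over 1.26-fold, 1.398-fold, 2.58-fold and 1.42-fold in that order. The comparison between positions holds for this length only, since the longest transcript as length gives CCNC the 148.6 TPM named above. These are RNA levels, and no protein was measured.

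Among the 33 Mediator genes measured, the members ranked 6 (CCNC), 9 (MED13), 12 (MED12), 15 (CDK8), 23 (CDK19), 29 (MED13L) and 33 (MED12L) by median TPM. Their median was 42.6 TPM, against 34.4 TPM for the 26 genes of core Mediator, which ran between MED26 at 5.22 TPM and MED30 at 170.4 TPM. MED12L was the only 1 of the 33 with a median under 1 CPM. Over all 32968 rows with any count, CCNC stood at percentile 89.8, MED13 at 88.3, MED12 at 86.9, CDK8 at 85.7, CDK19 at 77.5, MED13L at 72.2 and MED12L at 34.4.

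Spread was taken as the standard deviation over the 12 cultures of log2 CPM scaled by TMM, a normalization that corrects for differences in library composition. It was 0.35 for MED12, 0.31 for CDK19, 0.24 for CCNC, 0.19 for CDK8, 0.15 for MED13L and 0.12 for MED13, against a median of 0.30 over 14137 genes with a median of at least 1 CPM. Counting error alone would give 0.034 to 0.074, so all 6 varied beyond it. MED12 stood at percentile 60.8 of those genes, CDK19 at 52.7, CCNC at 37.9, CDK8 at 21.5, MED13L at 10.3 and MED13 at 5.03. No member stood above percentile 60.8. The order depends on S21 to S24: without them the spread was 0.33 for CDK19, 0.21 for MED12, 0.18 for MED13L, 0.16 for CCNC, 0.15 for MED13 and 0.11 for CDK8. MED12L was too low for a spread to be given.

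Co-variation was examined over the 15 pairs of the 6 genes with a median of at least 50 counts, with 2-sided permutation tests and Benjamini-Hochberg adjustment over the 15. The permutation treats the cultures as exchangeable although they hold 4 treatments, so a correlation may hold differences between treatments and between repeats together. In 4 pairs the adjusted p was below 0.05, and in 1 of these it was also below 0.05 in the 8 cultures without S21 to S24. The weakest of the 4 had an r of 0.73 in size, and an r of at least that size is common for some members: among 9003 protein-coding genes with a median of at least 10 CPM, 18.6% reached it with CDK8, 22% with CDK19, 29.7% with CCNC and 31.2% with MED12. With MED13 0.678% reached it, and with MED13L 0.3%. At that size of r, relations of CDK8, CCNC and MED12 are shared with many other genes, and those of MED13 and MED13L with few. CDK8 and CCNC each had a larger r in size with MED12, for which no share was counted. From the highest r down, MED12 ranked 8871 of 9003 for CDK8 and 8728 for CCNC. For MED12, CDK8 ranked 8262 and CCNC 8427.

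MED13 and MED13L varied together, with Pearson's r = 0.92 over 12 cultures (permutation p = 2e-05, adjusted p = 0.0003) and Spearman's rho = 0.88 (permutation p = 0.00044, adjusted p = 0.0066). The permutation p of 2e-05 is near the smallest that 100000 resamples can give. Without S16 and S17, the cultures farthest from the MED13 median, r was 0.80. In the 8 cultures without S21 to S24, r was 0.94 (exact permutation p = 0.000422, adjusted p = 0.00632) and rho was 0.88 (exact permutation p = 0.00724, adjusted p = 0.109). Of the 9003 genes, MED13L had the highest r to MED13, and MED13 had the highest r to MED13L. In the 8 cultures each ranked 4 for the other. Both are long genes, with 12677 and 17290 exonic bases, and in the 8 cultures the level of long genes correlated with MED13 at r = 0.89 and with MED13L at r = 0.89. In all 12 cultures these were 0.37 and 0.51. The partial correlation of MED13 and MED13L given that level was 0.92 over the 12 (permutation, adjusted p = 0.0009). No partial correlation was computed for the 8 cultures, where r to that level was higher for both genes. The part of that level there was not tested.

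**Figure D3:**
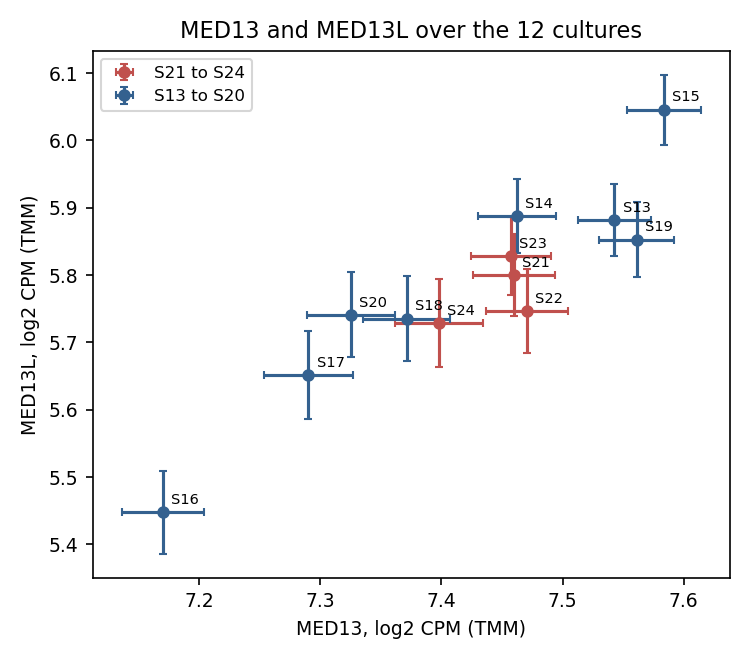
Log2 CPM (TMM) of MED13 on the x axis and MED13L on the y axis in each culture, with bars for 1 SD of counting error. S16 is lowest and S15 highest in both genes, and S21 to S24 lie in the middle of the range.

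MED12 varied opposite to CCNC and CDK8 over the 12 cultures. For CCNC and MED12, r was -0.85 (permutation p = 0.00067, adjusted p = 0.00502), rho was -0.85 (permutation p = 0.00094, adjusted p = 0.00705), and r without the 2 cultures farthest from the CCNC median was -0.76. For CDK8 and MED12, r was -0.84 (permutation p = 0.00106, adjusted p = 0.0053), rho was -0.78 (permutation p = 0.00461, adjusted p = 0.023) and r without the 2 farthest was -0.64. Both relations rest partly on S21 to S24: in the other 8 cultures r was -0.62 for CCNC and MED12 (exact permutation p = 0.108, adjusted p = 0.578) and -0.31 for CDK8 and MED12 (exact permutation p = 0.466, adjusted p = 0.776). On the log2 scale, MED12 lay at 5.73 to 6.20 in S21 to S24 and 6.21 to 6.83 in the other 8, CCNC at 6.55 to 6.87 in S21 to S24 and 6.11 to 6.50 in the other 8, and CDK8 at 5.27 to 5.56 in S21 to S24 and 4.997 to 5.34 in the other 8. On this scale MED12 and CCNC did not overlap between these cultures and CDK8 overlapped slightly. The gap for MED12, 6.20 against 6.21, was smaller than its counting SD of 0.05. In TPM, CCNC overlapped, at 63.6 to 73.5 in S21 to S24 and 52.6 to 66.7 in the other 8. The share of all genes with no overlap was not counted, so whether this is particular to the members cannot be said. Over the 12 cultures the level of long genes had r = -0.69 with CCNC and -0.76 with CDK8, and in the 8 it had -0.03 with CCNC and -0.24 with CDK8.

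CDK8 and CCNC had r = 0.73 (permutation p = 0.00743, adjusted p = 0.0279), but rho was 0.62 (permutation p = 0.0376, adjusted p = 0.113), and in the 8 cultures r was 0.08 (exact permutation p = 0.869, adjusted p = 0.961). Without the 2 cultures farthest from the CDK8 median, r was 0.57. This relation therefore rests on S21 to S24. CDK8 and CDK19 had r = -0.47 (permutation p = 0.121, adjusted p = 0.303), which did not pass the test. The other 10 pairs had r between -0.44 and 0.51, and none passed.

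**Figure D4:**
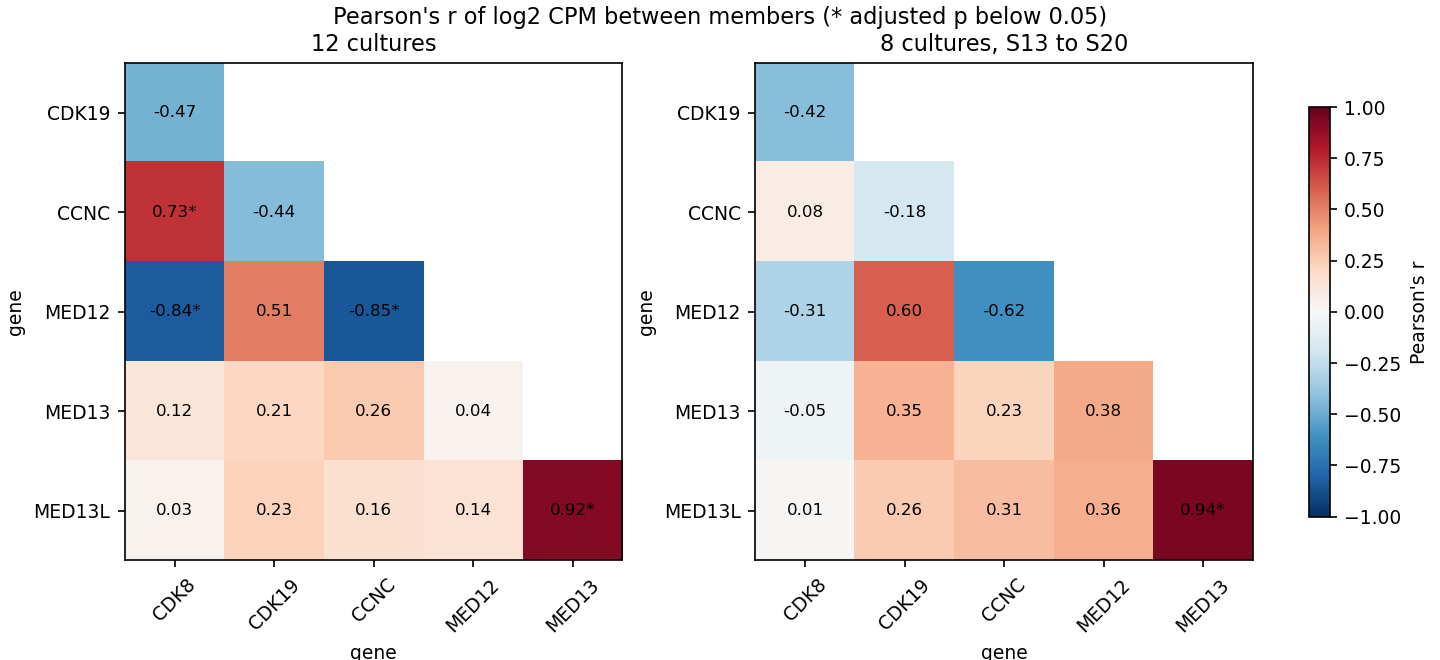
Pearson's r of log2 CPM for the 15 pairs of members, over 12 cultures on the left and over the 8 cultures S13 to S20 on the right, with a star where the adjusted p is below 0.05. MED13 with MED13L stands at 0.92 on the left and 0.94 on the right, and the 3 other starred pairs on the left carry no star on the right.

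**Figure D5:**
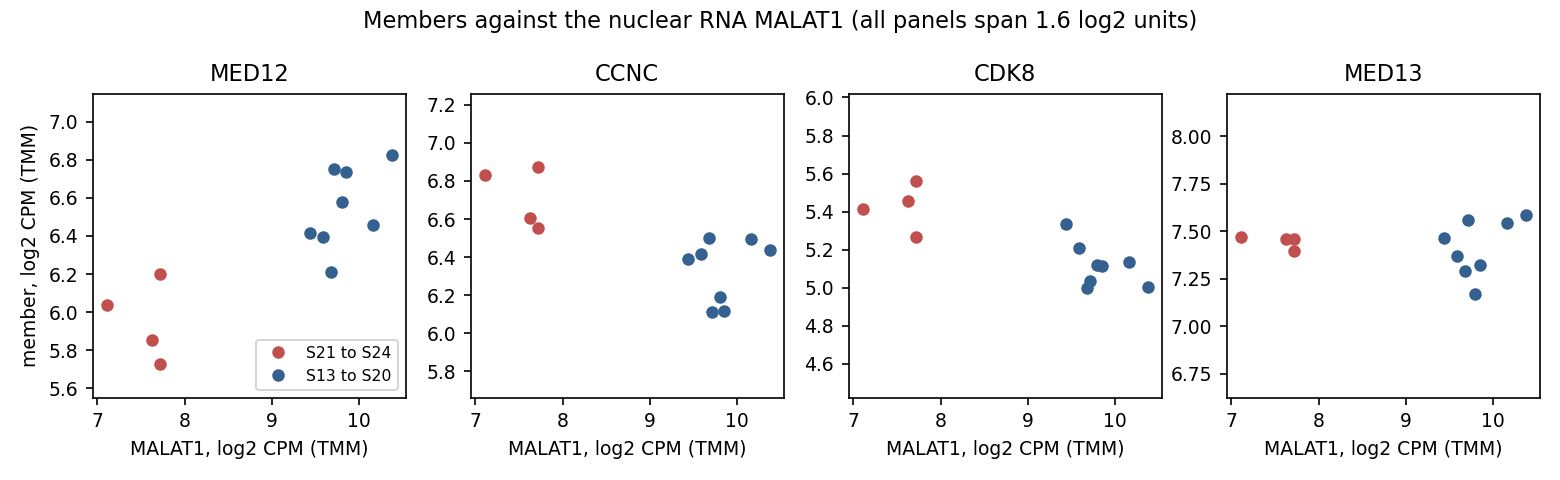
Log2 CPM (TMM) of MED12, CCNC, CDK8 and MED13 on the y axes against MALAT1 on the x axis in each culture, S21 to S24 in red and S13 to S20 in blue. MALAT1 splits the cultures into 2 sets. Between them MED12 and CCNC do not overlap on this scale, MED12 by less than its counting error. MED13 in S21 to S24 lies within the range of the other 8.

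The genes most like each member over the 12 cultures, by r among the 9003 genes, are given as a description, since the points share library, depth and the split of S21 to S24. CDK8 was most like CDYL (r = 0.93), VRK2 (0.91) and CCDC91 (0.91). CDK19 was most like ERAP2 (0.96), CCNG2 (0.96) and PLCB3 (0.96). CCNC was most like PSMC6, a proteasome ATPase gene (0.98), DR1 (0.97) and SMIM15 (0.97). Among the genes most like MED12 were PCLO (0.97) and CUL9 (0.97). After its paralogue, MED13 was most like GAPVD1 (0.90) and RFX1 (0.84), and MED13L was most like HIPK3 (0.83) and ZNF24 (0.81).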

How the data were processed

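Per the file headers, the authors made the deposited counts, 1 whole-number count of fragments per gene name and library, with featureCounts 1.4.6 on GENCODE 25, with no strand option although the labels name a directional kit. The command names 24 alignment files, 12 of which are columns here. The deposited table's other value, the exonic length, joins all exons of a gene name. Per the submitters' processing notes, Trim Galore 0.4.5 and STAR 2.4 were used on hg38 (GRCh38). From these counts, CPM, TPM and log2 CPM (prior count 2, edgeR 4.0.16 TMM over rows with at least 10 counts in 3 libraries) were computed. Intervals are exact 95% binomial and cover counting error only, as does the limit of 3 counts. Tests used 100000 seeded resamples, or all orders for 8 cultures, and were tested on simulated data. The p-values give how often shuffled cultures reach an r or rho of at least the observed size, with the cultures taken as exchangeable. Libraries were compared in 66 pairs and none agreed within sampling noise. Members, lists, markers and the rule for most alike genes (the 3 highest r) were chosen with earlier results of these data known, and some items are not reported here. The 37 mitochondrial rows sum to 0 counts, so a planned mitochondrial share could not be computed. Alternatives were DESeq2 1.42.0 size factors, total counts, another prior count, other lengths, and left-out cultures. Coding sequences are from GENCODE 29.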

Additional observations from a re-analysis of the deposited data

How the results depend on the processing

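The number of member pairs with an adjusted p below 0.05, 4 as reported, was 2 with scaling to total counts alone, 5 with no minimum count (21 pairs, CDK19 with MED12L added at r 0.77, 0.39 without S18 and S22, MED12L having 0 to 9 counts), 8 in partial correlations given the level of long genes, and, in 2 alternatives chosen after seeing the data, 1 without S21 to S24 and 1 given MALAT1. It was 3 to 4 when each culture was left out in turn. MED13 with MED13L passed under all these alternatives (adjusted p 0.00015 to 0.00632). Given the level of long genes, 2 of the 4 pairs were lost, CDK8 with MED12 (r -0.54, adjusted permutation p = 0.119) and CDK8 with CCNC (r 0.42, adjusted permutation p = 0.252), and 6 others passed: CDK8 with MED13 (r 0.66) and MED13L (0.75), CCNC with MED13 (0.77) and MED13L (0.83), and MED12 with MED13 and MED13L, where r turned to -0.65 and -0.75. The cause was not tested. With scaling to total counts, r was 0.44 for CDK8 with CCNC (adjusted permutation p = 0.214) and -0.68 for CDK8 with MED12 (adjusted permutation p = 0.0748). CDK8 with CCNC also failed without S19, S21, S22 or S24 (r 0.61 to 0.72). Without length, in CPM, the median log2 ratio was -0.075 for CDK8 over CDK19 and 1.65 for MED13 over MED13L, and the log2 ratio of counts summed over cultures was 7.78 for MED12 over MED12L (8.54 as reported), since the paralogues differ in length. With unshared exonic bases as length that summed ratio was 8.03. Leaving out each culture gave 1.00 to 1.02 for the kinase median, 2.09 to 2.11 for the MED13 median and 8.43 to 8.64 for the summed MED12 ratio. DESeq2 size factors, a prior count of 0.5 and TMM over all rows changed no call. No paired analysis was possible because the count columns carry no replicate number. The depth limits MED12L, where 3 counts are the floor.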

Other observations

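The other transcriptional kinases and their cyclins give a scale for the module. Of 13 genes listed, 12 were found, with a median of 39.2 TPM, and they ran between CCNK, the cyclin of CDK12 and CDK13, at 9.79 TPM and CDK9, the kinase of the elongation factor P-TEFb, at 146.5 TPM. CDK7, the kinase of TFIIH, had a median of 49.97 TPM, CDK12 42.8 TPM and CDK13 45.5 TPM. CDK8 (42.6 TPM) lay near CDK12 and CDK13, whereas CDK19 (20.9 TPM) lay below all 5 other kinases of the list. FBXW7, which encodes the ubiquitin ligase subunit known to target MED13 and MED13L for degradation, had a median of 8.84 TPM and 187 to 307 counts.

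The SD of log2 CPM over the 12 cultures was 0.82 for CCNL1 and 0.73 for CCNL2, cyclins linked to splicing, against 0.35 for MED12 and 0.31 for CDK19, the members with the widest spread over these 12. MED23, a tail subunit of core Mediator, had the widest spread of the Mediator genes with an SD of 0.41, and MED24, also a tail subunit, had the narrowest at 0.10. MED12 ranked 31 and MED13 ranked 4 of 32 Mediator genes in order of rising spread.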
